A study of Mus musculus with 96 samples.

Results

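Sphingolipids are membrane lipids and signalling molecules that are built around a sphingoid base. Serine palmitoyltransferase joins serine and palmitoyl-CoA in the first and rate-limiting step, ceramide synthases attach a fatty acid to the base, and dihydroceramide desaturase introduces the double bond that turns dihydroceramide into ceramide. Ceramide can also be released from sphingomyelin by sphingomyelinases, and sphingosine kinases convert the base that remains after ceramide breakdown into sphingosine 1-phosphate. Excess palmitate feeds this route, and ceramide is widely studied as a lipid that impairs insulin action in liver and beta cell function in islets.

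The set described here held 10 of the 21990 genes in the expression table, listed by name for their place in the pathway, with earlier results of these data known. Sptlc1 and Sptlc2 encode subunits of serine palmitoyltransferase. Cers2, Cers4, Cers5 and Cers6 encode ceramide synthases, of which Cers2 prefers very long acyl chains and Cers5 and Cers6 prefer palmitoyl chains. Degs1 encodes dihydroceramide desaturase, Smpd3 encodes neutral sphingomyelinase 2, and Sphk1 and Sphk2 encode the sphingosine kinases.

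RNA was sequenced from islets and liver of 48 male C57BL/6N mice, 4 weeks old when bought, which gave 96 libraries in 24 groups of 4 mice. Mice ate a high-fat diet (HFD, Research Diets D12492, 60% fat) or a chow diet (CD, LabDiet 5001, 13.5% fat) and were examined at weeks 4, 8, 12, 16, 20 and 24, and both tissues were taken from every mouse. The 2 diets are different formulations, so the share of fat and the other ingredients cannot be told apart. Islets were released with collagenase P and picked by hand, liver was taken from the same region in all mice, and neither tissue was sorted into cell types, so a change in the number of cells of a type and a change in RNA per cell cannot be told apart.

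Values are FPKM, fragments mapped to a gene scaled by transcript length and by the library's mapped fragments, and are per length and can be set side by side between genes. Depth is unknown from the values and no counting interval could be given. Summed FPKM ranged from 892097 to 1278652 in islets and from 560016 to 672369 in liver. The tissue labels held in every library: summed beta cell markers were at least 575199 FPKM in islets and at most 3698 FPKM in liver, 0.643% of the lowest islet sum, while summed hepatocyte markers were at least 30240 FPKM in liver and at most 120 FPKM in islets. Of 48 liver libraries, 2 held over 1000 FPKM of beta cell markers, both from CD mice. Insulin genes took a median of 65.2% of all FPKM in CD islets and 69.4% in HFD islets.

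Promoter windows of 9 of the 10 genes were found in RefSeq (GRCm38.p6), and those of 3 genes are shown here, cut to the bases that lie before the gene's start in the deposited table as well: both serine palmitoyltransferase subunits, since the liver tests below turn on Sptlc2, and Cers5, since it lay furthest below its islet level in liver. Capitals mark the GC box GGGCGG and the CCAAT box, on either strand. The Sptlc1 window is chr13:53377418-53377611, the Sptlc2 window chr12:87388356-87388605 and the Cers5 window chr15:99772516-99772765, all read 5′ to 3′ on the minus strand.
Sptlc1: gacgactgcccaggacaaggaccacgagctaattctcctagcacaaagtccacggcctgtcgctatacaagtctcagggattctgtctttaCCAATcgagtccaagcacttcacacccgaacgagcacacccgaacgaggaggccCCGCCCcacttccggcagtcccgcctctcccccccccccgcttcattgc
Sptlc2: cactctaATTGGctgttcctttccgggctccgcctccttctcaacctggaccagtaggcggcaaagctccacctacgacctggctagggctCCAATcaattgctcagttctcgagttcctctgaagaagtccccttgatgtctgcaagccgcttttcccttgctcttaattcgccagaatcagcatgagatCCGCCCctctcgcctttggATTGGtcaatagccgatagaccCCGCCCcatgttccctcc
Cers5: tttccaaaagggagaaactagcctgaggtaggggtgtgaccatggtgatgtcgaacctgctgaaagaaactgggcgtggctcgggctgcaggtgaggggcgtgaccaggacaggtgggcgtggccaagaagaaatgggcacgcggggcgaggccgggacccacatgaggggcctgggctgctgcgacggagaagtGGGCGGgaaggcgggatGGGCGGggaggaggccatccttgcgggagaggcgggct
The 194 bases shown of Sptlc1 held 1 GC box and 1 CCAAT box. The 250 bases of Sptlc2 held 2 GC boxes and 3 CCAAT boxes, and the 250 bases of Cers5 held 2 GC boxes and no CCAAT box. Among all 32851 mouse windows of 250 bases, 32.74% held the GC box letters and 33.85% held the CCAAT letters. The E-box CACGTG, found in 6.02% of all windows on either strand, was not in the stretches shown. The TATA box TATAAA, found in 12.37% of all windows on either strand, was not in them either. CpG dinucleotides numbered 11 in the Sptlc2 window and 16 in that of Cers5, against a median of 6 over all windows. These matches describe letters only.

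In CD mice, the dominant transcript of the set was Degs1 in islets and Cers2 in liver. Degs1 ranged from 80.94 to 125 FPKM in islets, with a median of 96.1, and from 24.7 to 37.7 FPKM in liver, with a median of 31.6. Cers2 had a median of 32.9 FPKM in islets (29.4 to 37.9) and of 137 FPKM in liver (112.3 to 185). The 24 CD libraries of one tissue did not overlap those of the other for either gene, nor for Sptlc1, Sptlc2, Cers4, Cers5, Cers6 or Smpd3. The share of all genes without such overlap was not counted, so this separation is not read as particular to these genes. In the test below, 29.0% of all genes were higher and 66.4% lower in liver.

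**Figure D1:**
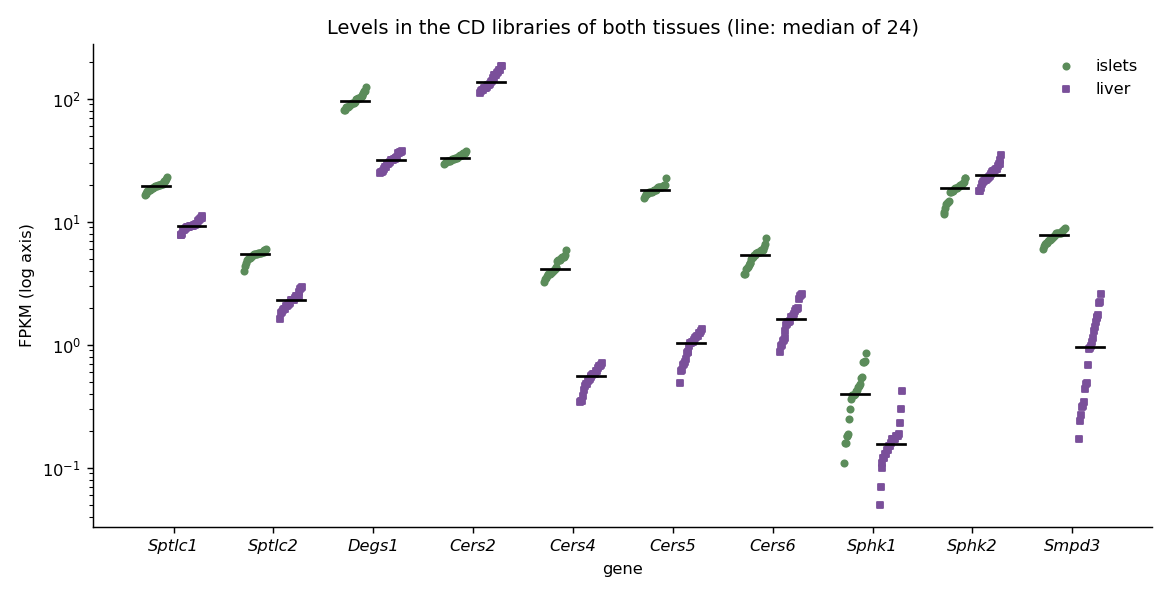
FPKM of the 10 genes (log axis) in the 24 CD libraries of islets (circles) and of liver (squares), sorted within each gene and tissue, with the median as a line. Degs1 leads in islets at a median of 96.1 FPKM and Cers2 leads in liver at 137 FPKM, and Sphk1 lies lowest in both, under 1 FPKM in every library.

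Below Degs1 and Cers2, the islet order in CD mice was Sptlc1 (median 19.4 FPKM, 16.6 to 23.3), Sphk2 (18.7, 11.6 to 22.8), Cers5 (18.0, 15.6 to 22.9), Smpd3 (7.74, 5.99 to 8.93), Sptlc2 (5.48, 3.97 to 6.06), Cers6 (5.36, 3.74 to 7.39) and Cers4 (4.16, 3.26 to 5.85). Ranges of Sptlc1, Sphk2 and Cers5 overlapped each other, as did those of Smpd3 and Sptlc2 and those of Sptlc2, Cers6 and Cers4, so those neighbours were not ordered beyond their spread. In liver the order was Cers2, Degs1, Sphk2 (23.9, 17.8 to 35.0), Sptlc1 (9.30, 7.83 to 11.2), Sptlc2 (2.30, 1.62 to 2.93), Cers6 (1.62, 0.88 to 2.59), Cers5 (1.04, 0.49 to 1.34), Smpd3 (0.955, 0.17 to 2.59) and Cers4 (0.555, 0.34 to 0.71). Degs1 and Sphk2 overlapped in liver, and so did each neighbour pair from Sptlc2 downwards. Sphk1 was below 1 FPKM in all 96 libraries, with medians of 0.395 FPKM in CD islets and 0.155 FPKM in CD liver, and it passed no filter on the deposited FPKM.

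The makeup of the ceramide synthases differed widely between tissues. Of the summed FPKM of the 4 synthases in CD mice, Cers2 held a median of 54.2% in islets (51.2 to 57.6%) and 97.8% in liver (96.3 to 98.6%). Cers5 held 29.96% in islets and 0.733% in liver. Cers6 held 8.68% and 1.11%, and Cers4 held 6.86% and 0.387%. Transcripts of the palmitoyl-preferring synthases were thus a sizeable share of the islet mixture and a small one in liver, in terms of RNA. The ratio of Sptlc1 to Sptlc2 was alike in both tissues, at a median of 3.53 in CD islets (3.08 to 5.09) and 4.12 in CD liver (3.25 to 4.83).

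Liver was set against islets within CD mice with limma on log2(FPKM + 1), and genes passed at a Benjamini-Hochberg adjusted p under 0.05 over all genes tested. All fold changes below are on this scale, which understates changes of genes near or below 1 FPKM. The median over all genes was −0.66, so each difference is followed by its value relative to that median. Cers2 was higher in liver by 2.06 (relative value 2.72) and Sphk2 by 0.45 (1.11), and the other 7 genes tested were lower. Among these, Cers5 differed by −3.30 (relative −2.64), Smpd3 by −2.15 (−1.49), Cers4 by −1.80 (−1.13), Degs1 by −1.62 (−0.95), Cers6 by −1.25 (−0.58), Sptlc1 by −0.98 (−0.31) and Sptlc2 by −0.95 (−0.29). All 9 tested genes passed, 2 higher against 29.0% of all genes and 7 lower against 66.4%, so passing was the usual outcome here and the sizes carry the comparison. Islets and liver of one mouse share a replicate number, and with the mouse as a replicate block 9 of 9 passed as well.

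The question of the study was how the HFD changed each tissue over time. In liver, Sptlc2 was the member whose level moved most steadily with the HFD. At week 4 its values were 2.40, 1.94, 1.83 and 2.06 FPKM in the 4 CD mice and 2.09, 2.71, 2.58 and 2.48 FPKM in the 4 HFD mice. At week 8 CD mice had 2.15, 2.51, 2.32 and 2.30 FPKM, and HFD mice 2.99, 2.99, 2.71 and 2.51 FPKM. The groups met or overlapped at both of these weeks.

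At week 12 the CD mice had 2.49, 2.09, 1.86 and 1.62 FPKM of Sptlc2 and the HFD mice 3.06, 3.30, 2.66 and 3.38 FPKM. At week 16 the CD values were 2.30, 1.90, 2.18 and 2.08 FPKM and the HFD values 3.20, 3.80, 4.13 and 3.76 FPKM. The HFD mean was 1.54 times the CD mean at week 12 and 1.76 times at week 16. From week 12 to week 24 all 4 HFD mice lay above all 4 CD mice at every time point. Of all genes tested, 14.6% showed this pattern in week 12, 11.9% in week 16, 6.58% in week 20 and 8.14% in week 24.

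At week 20 the CD livers had 2.93, 2.83, 1.97 and 2.47 FPKM of Sptlc2 against 3.07, 4.17, 7.07 and 3.84 FPKM under HFD. At week 24 they had 2.31, 2.70, 2.47 and 2.90 FPKM against 3.63, 3.14, 3.92 and 2.99 FPKM. The liver library of mouse HFD517 at week 20, with 7.07 FPKM, was the highest of all 48. It was also the highest of 48 for Smpd3 at 6.31 FPKM, for Cers5 at 1.69 FPKM, for summed macrophage markers at 219 FPKM and for summed stromal markers at 160 FPKM, and the lowest for summed hepatocyte markers at 30240 FPKM.

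**Figure D2:**
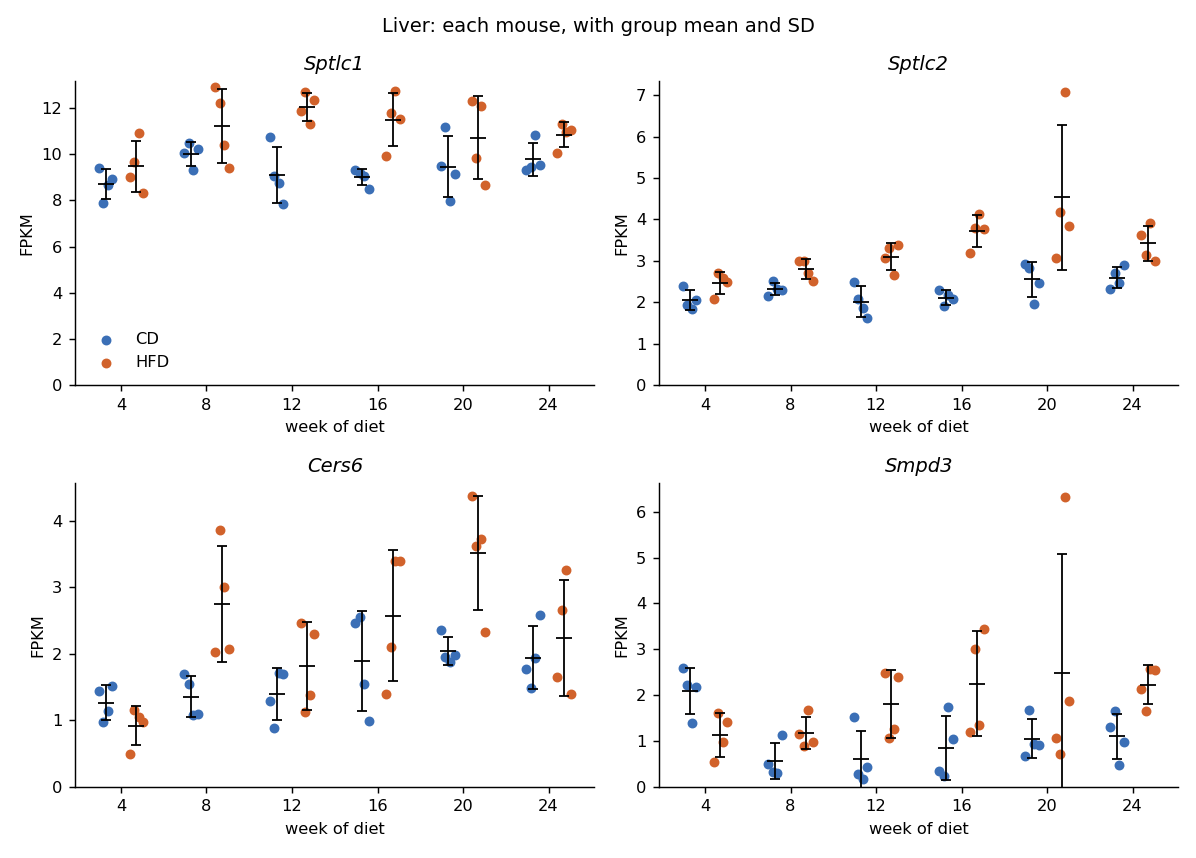
FPKM of Sptlc1, Sptlc2, Cers6 and Smpd3 in liver (y axes from 0) by week of diet, with one point per mouse (blue CD, orange HFD) and the mean and SD of each group of 4 in black. HFD points of Sptlc2 lie above all CD points from week 12 on, with one HFD mouse at 7.07 FPKM at week 20, and Smpd3 lies lower under HFD at week 4 and higher on average at later weeks.

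By week, 4 of 45 member tests passed in liver, all of them higher under HFD. Sptlc2 rose at week 12, by 0.45 (SE 0.11, limma adjusted p = 0.0325), and at week 16, by 0.60 (SE 0.09, limma adjusted p = 0.00404). Sptlc1 rose at week 12, by 0.38 (SE 0.10, limma adjusted p = 0.040), and Cers6 rose at week 8, by 0.65 (SE 0.17, limma adjusted p = 0.0488). Among all genes, 6.17% rose at week 8, 9.42% at week 12 and 6.74% at week 16.

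The week 16 call for Sptlc2 held with any of the 8 libraries left out, with an adjusted p of 0.00158 to 0.0192. The other 3 calls depended on single libraries. Sptlc2 and Sptlc1 at week 12 passed in 2 of 8 such fits, without mouse CD304 or without mouse HFD316, with highest adjusted p of 0.103 and 0.117. Cers6 at week 8 passed in 1 of 8, without mouse HFD217, and its adjusted p ranged from 0.0308 to 0.13. That call was also lost after median ratio scaling, at 0.61 (limma adjusted p = 0.0555).

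No member passed in liver at week 4, 20 or 24, where 0.0506%, 2.47% and 0.837% of all genes passed in either direction. Sptlc2 differed by 0.60 (SE 0.20, limma adjusted p = 0.152) at week 20 and by 0.30 (limma adjusted p = 0.218) at week 24. At week 4, 5 genes in all passed and 1271 had an unadjusted p under 0.05.

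Sptlc1 followed Sptlc2 in part. At week 12 its liver values were 10.76, 9.06, 8.75 and 7.83 FPKM in CD mice and 11.86, 12.69, 11.32 and 12.35 FPKM in HFD mice. At week 16 they were 9.30, 9.17, 9.05 and 8.51 FPKM against 9.94, 11.81, 12.74 and 11.52 FPKM, with a difference of 0.32 that did not pass (limma adjusted p = 0.0603). The groups were apart at both weeks, with HFD above CD, as for 14.6% of all genes at week 12 and 11.9% at week 16.

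Cers6 was uneven over time. At week 8 the CD livers had 1.69, 1.54, 1.08 and 1.1 FPKM and the HFD livers 2.03, 3.87, 3.0 and 2.08 FPKM, with no overlap, as for 11.4% of all genes that week. At week 20 the values were 2.36, 1.95, 1.87 and 1.99 FPKM against 4.38, 3.62, 3.73 and 2.33 FPKM, where the lowest HFD mouse fell just below the highest CD mouse, and the difference of 0.55 did not pass (limma adjusted p = 0.0907), though it did after median ratio scaling, at 0.50 (limma adjusted p = 0.048). At week 4 the HFD values of 0.49, 1.16, 1.05 and 0.97 FPKM lay within or below the CD values of 1.44, 0.97, 1.14 and 1.52 FPKM.

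Smpd3 was the most variable member in liver. At week 4 the CD mice had 2.59, 2.22, 1.39 and 2.18 FPKM and the HFD mice 0.53, 1.6, 0.97 and 1.42 FPKM, a difference of −0.55 that did not pass. At week 12 the values were 1.52, 0.27, 0.17 and 0.44 FPKM in CD mice and 2.48, 1.07, 1.27 and 2.39 FPKM in HFD mice, a difference of 0.84 (limma adjusted p = 0.0738). HFD means were lower at week 4 and higher at each later week.

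At week 16 CD livers had 0.34, 0.24, 1.74 and 1.05 FPKM of Smpd3 against 1.2, 3.01, 1.35 and 3.44 FPKM. At week 24 they had 1.30, 1.65, 0.48 and 0.97 FPKM against 2.13, 1.66, 2.56 and 2.54 FPKM. Only at week 24 did all 4 HFD mice exceed all 4 CD mice, as for 8.14% of all genes that week. The gap was 0.01 FPKM at the closest. No week that was tested passed, and at week 8 Smpd3 was under the filter and not tested.

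Over all 6 weeks, 24 HFD mice were set against 24 CD mice, and 5 of the 8 members tested in liver rose, where 34.4% of all genes rose. Sptlc2 averaged 2.28 ± 0.35 FPKM (SD, n = 24) in CD livers and 3.34 ± 0.97 FPKM (SD, n = 24) in HFD livers, a rise of 0.39 (SE 0.05, 95% interval 0.29 to 0.49, limma adjusted p = 6.39e-08). Smpd3 averaged 1.04 ± 0.71 FPKM and 1.84 ± 1.22 FPKM (SD, n = 24 each), a rise of 0.46 (interval 0.21 to 0.72, limma adjusted p = 0.00291). Sptlc1 averaged 9.35 ± 0.90 FPKM and 11.0 ± 1.36 FPKM (SD, n = 24 each), a rise of 0.21 (SE 0.04, limma adjusted p = 8.27e-05).

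Cers6 rose from 1.65 ± 0.51 to 2.30 ± 1.08 FPKM (SD, n = 24 each), by 0.26 (SE 0.08, limma adjusted p = 0.00949). Cers2 rose by 0.14 (SE 0.04, limma adjusted p = 0.00667). Sphk2 at 0.13 (limma adjusted p = 0.0977) and Cers5 at 0.08 (limma adjusted p = 0.129) did not pass. Degs1 was at 0.02 with a 95% interval of −0.06 to 0.10 (limma adjusted p = 0.715). Cers4, at 0.29 to 1.00 FPKM in all liver libraries, stayed under the filter.

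**Figure D3:**
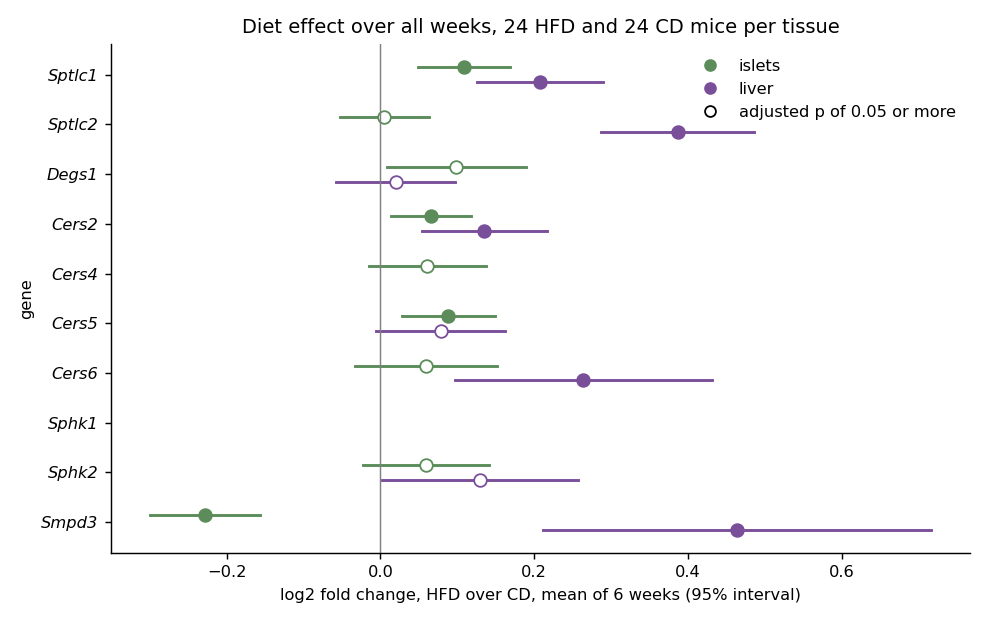
Log2 fold change of HFD over CD (x axis, mean of the 6 weekly differences on log2(FPKM + 1)) for each gene in islets (green) and liver (purple), with 95% intervals as bars, filled where the adjusted p is under 0.05. Sptlc2 stands at 0.39 in liver and 0.00 in islets, and Smpd3 at 0.46 in liver and −0.23 in islets. Sphk1 in both tissues and Cers4 in liver were under the filter and are not drawn.

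The median change of the 8 liver members was 0.17, against 0.07 over all genes tested. Calls over all liver genes depended on scaling, with 3437 higher and 687 lower on deposited FPKM and 1942 higher and 1742 lower after median ratio scaling. Under that scaling 4 of the 5 calls held, with Sptlc2 at 0.32, Smpd3 at 0.42 (limma adjusted p = 0.00719), Cers6 at 0.21 (limma adjusted p = 0.0312) and Sptlc1 at 0.13 (limma adjusted p = 0.00175). Cers2 fell to 0.05 and did not pass (limma adjusted p = 0.296).

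With each week left out in turn, Sptlc2, Sptlc1 and Smpd3 passed in 6 of 6 fits. Cers6 passed in 4 of 6, and not without week 8 or week 20. Cers2 passed in 3 of 6, and not without week 12, 16 or 24. Without the library of mouse HFD517, Sptlc2 stood at 0.35 (limma adjusted p = 4.61e-09) and Smpd3 at 0.39 (limma adjusted p = 0.00327), and 5 members still passed. Without the 2 CD libraries that held over 1000 FPKM of beta cell markers, Sptlc2 stayed at 0.39 and Smpd3 at 0.46.

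Median sums of macrophage and stromal markers in liver were higher under the HFD, though no marker sum was tested. Summed macrophage markers (Adgre1, Cd68, Csf1r, C1qa and C1qb, all 5 in the table) had a median of 67.5 FPKM in CD livers (37.4 to 124) and 105.5 FPKM in HFD livers (43.4 to 219). Summed stromal markers (4 collagen and matrix genes) had 57.6 FPKM (27.1 to 87.0) and 94.4 FPKM (47.7 to 160). Summed hepatocyte markers were close, at 52816 FPKM (37035 to 70630) and 53157 FPKM (30240 to 62038). Endothelial markers had medians of 10.86 and 10.95 FPKM in CD and HFD livers, ductal markers 10.2 and 9.66 FPKM, and lymphocyte markers 1.145 and 0.895 FPKM.

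Across the 48 liver libraries, Sptlc2 correlated with summed macrophage markers at r = 0.575, with stromal markers at r = 0.681 and with hepatocyte markers at r = −0.407. Once each library was taken as its deviation from its group mean, the values were 0.189, 0.186 and −0.5. Without mouse HFD517 these within-group values were 0.085, −0.02 and −0.201. Much of the pooled relation with macrophage and stromal markers therefore lay between the groups. Smpd3 gave 0.364 with macrophage markers over all libraries and 0.029 within groups, and Sptlc1 gave 0.684 with stromal markers and 0.456 within groups. These are descriptions over libraries that share diet and week, and the part of macrophages and stromal cells in the rise of Sptlc2, Sptlc1 and Smpd3 was not tested.

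**Figure D4:**
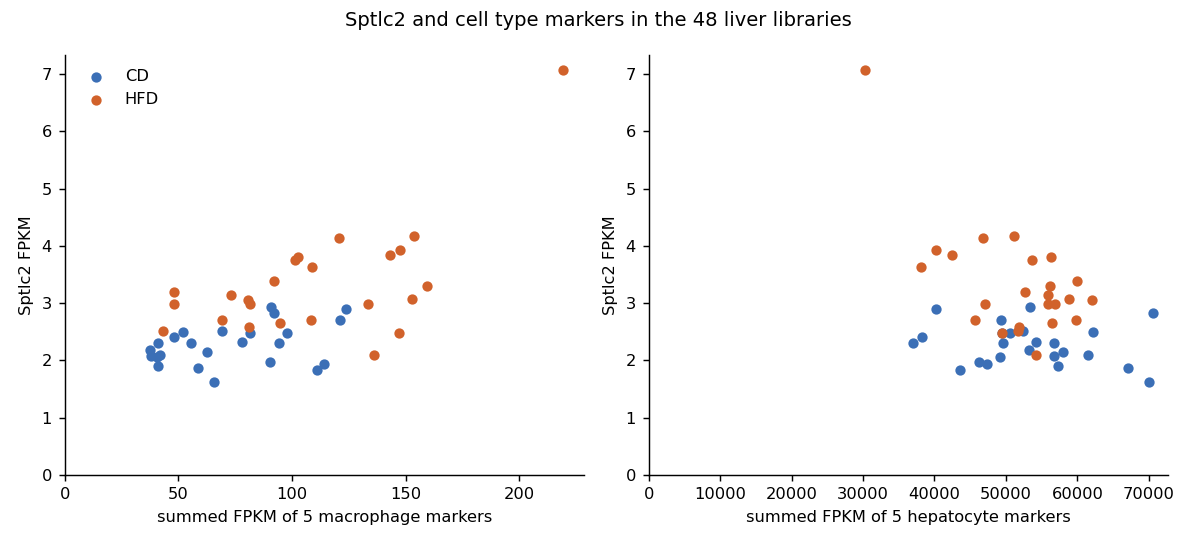
Sptlc2 FPKM (y axes) against the summed FPKM of 5 macrophage markers (left) and of 5 hepatocyte markers (right) in the 48 liver libraries, blue for CD and orange for HFD. HFD livers lie mostly above CD livers, and the library at 7.07 FPKM has both the highest macrophage sum, 219 FPKM, and the lowest hepatocyte sum, 30240 FPKM.

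The difference in macrophage markers varied by week. At week 8, where Sptlc2 differed by 0.19, their median was 65.8 FPKM in CD livers and 58.6 FPKM in HFD livers, and at week 16, where Sptlc2 differed by 0.60, it was 39.6 FPKM and 102 FPKM. At week 4, where Sptlc2 values overlapped between diets, the macrophage medians were 79.7 FPKM under CD and 122 FPKM under HFD. They were 55.3 and 93.4 FPKM at week 12, 91.6 and 153 FPKM at week 20, and 107.5 and 121 FPKM at week 24. For Cers6, the correlation with summed beta cell markers in liver was −0.543 over all libraries and −0.531 within groups. Week 8, where Cers6 passed, had a median beta cell marker sum of 24.7 FPKM in CD livers and 0.055 FPKM in HFD livers, and the part of that difference in the Cers6 call was not tested.

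Among the members in liver, Sptlc2 and Smpd3 had r = 0.617 over the 48 libraries and 0.567 within groups, and Sptlc1 and Sptlc2 had 0.655 and 0.473. Without the library of mouse HFD517, which was highest for Sptlc2 and Smpd3, that pair had 0.492 over 47 libraries and 0.305 within groups, and Sptlc1 and Sptlc2 had 0.67 and 0.432. Of the 9982 genes tested in liver, those whose level across the 48 libraries was most like that of Sptlc2 were Tpd52 (r = 0.887), Apobec1 (0.887), Ms4a6c (0.884), Ehd4 (0.881) and Plscr1 (0.877). Within groups their r lay between 0.636 and 0.789, with the library of mouse HFD517 kept, and was not computed without it.

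In islets, Smpd3 was the member that fell. At week 16 the CD islets had 6.68, 6.36, 6.65 and 6.68 FPKM and the HFD islets 5.21, 5.43, 4.89 and 5.50 FPKM. At week 8 they had 7.64, 8.08, 7.09 and 7.27 FPKM against 6.13, 5.40, 6.58 and 6.34 FPKM. At week 20 they had 8.45, 8.07, 8.17 and 7.42 FPKM against 7.09, 6.46, 6.83 and 7.34 FPKM. At these weeks all 4 HFD mice lay below all 4 CD mice, as did 15.8% of all genes at week 8, 8.77% at week 16 and 9.76% at week 20.

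Smpd3 values overlapped at the other weeks. At week 4 they were 8.68, 8.38, 8.15 and 8.05 FPKM in CD islets and 5.38, 7.92, 7.12 and 8.06 FPKM in HFD islets. At week 12 they were 6.96, 8.93, 8.16 and 7.59 FPKM against 6.6, 7.23, 6.21 and 7.03 FPKM, and at week 24 they were 8.55, 7.17, 7.83 and 5.99 FPKM against 5.95, 7.21, 5.99 and 5.34 FPKM. The HFD mean was the lower one in 6 of 6 weeks.

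**Figure D5:**
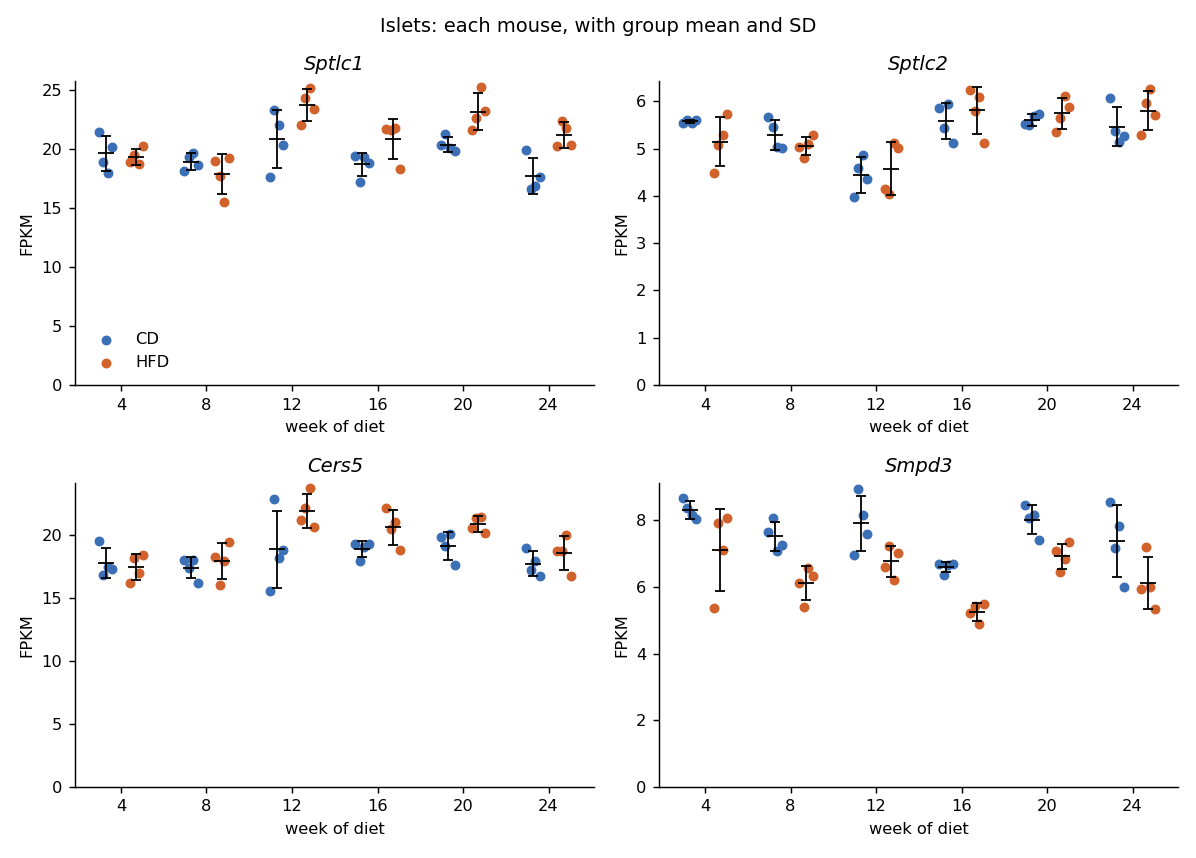
FPKM of Sptlc1, Sptlc2, Cers5 and Smpd3 in islets (y axes from 0) by week of diet, with one point per mouse (blue CD, orange HFD) and the mean and SD of each group of 4 in black. HFD means of Smpd3 lie below CD means in all 6 weeks, while Sptlc2 overlaps between diets at every week.

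By week, 1 of 54 member tests passed in islets. Smpd3 fell at week 16 by 0.28 (SE 0.07, limma adjusted p = 0.0195), where 5.15% of all genes fell. The call held in 5 of 8 fits with a library left out, and was lost without mouse CD401, mouse CD405 or mouse HFD416, with an adjusted p of up to 0.0683. At week 8 Smpd3 differed by −0.26 (limma adjusted p = 0.0631).

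No member passed in islets at week 4, 8, 12, 20 or 24. The shares of all genes that passed there in either direction were 0.0%, 5.27%, 4.53%, 4.74% and 8.3%. At week 4 the test called 0 genes, and 854 had an unadjusted p under 0.05. Sptlc1 at week 24 differed by 0.24 (limma adjusted p = 0.0729).

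Over all 6 weeks in islets, Smpd3 averaged 7.63 ± 0.79 FPKM under CD and 6.39 ± 0.89 FPKM under HFD (SD, n = 24 each), a fall of 0.23 with a 95% interval of −0.30 to −0.16 (limma adjusted p = 2.17e-06), and 20.9% of all genes fell. Among the members that rose, Sptlc1 went from 19.4 ± 1.7 to 21.0 ± 2.4 FPKM (SD, n = 24 each), by 0.11 (SE 0.03, limma adjusted p = 0.00334). Cers5 rose by 0.09 (SE 0.03, limma adjusted p = 0.0179) and Cers2 by 0.07 (SE 0.03, limma adjusted p = 0.0424). In all 3 of 9 tested rose and 1 fell, where 16.9% of all genes rose.

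Sptlc2 in islets was at 0.00 with a 95% interval of −0.05 to 0.06 (limma adjusted p = 0.912). Degs1, at 0.10 (limma adjusted p = 0.0784), and Cers4, Cers6 and Sphk2, each at 0.06, did not pass. The median change of the 9 members was 0.06, against −0.01 over all genes. With single weeks left out, Smpd3 and Sptlc1 passed in 6 of 6 fits, with Smpd3 between −0.24 and −0.22, Cers5 passed in 3 of 6 and Cers2 in 2 of 6. Degs1 passed without week 8, at 0.17 (limma adjusted p = 0.00728).

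The insulin genes bear on these small islet changes. With Ins1 and Ins2 left out and each library rescaled to its former total, the median of all genes rose to 0.16, and Smpd3 stood at −0.07 and did not pass (limma adjusted p = 0.169). Relative to the median of all genes it was −0.23. Relative values of the members that rose were 0.14 for Sptlc1, 0.12 for Cers5 and 0.09 for Cers2. Sptlc2 passed on that scale at 0.18 (limma adjusted p = 0.000116), about the median of all genes. At week 16 the rescaled Smpd3 value was 0.031 (limma adjusted p = 0.801) beside a median of 0.34 for all genes, so the direction of that call held only relative to other genes.

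Sphk1 gave calls in islets only where the filter or the scaling was changed. At week 12 the CD islets had 0.48, 0.73, 0.73 and 0.74 FPKM and the HFD islets 0.06, 0.15, 0.22 and 0.48 FPKM, and at week 16 they had 0.4, 0.42, 0.55 and 0.85 FPKM against 0.1, 0.2, 0.2 and 0.24 FPKM. With no filter Sphk1 was lower under HFD at week 12, at −0.45 (limma adjusted p = 0.0391), and at week 16, at −0.38 (limma adjusted p = 0.0211). Without Ins1 and Ins2 it was tested at weeks 4, 8, 12, 16 and 24 and was lower at week 12, at −0.61 (limma adjusted p = 0.00122), and at week 16, at −0.58 (limma adjusted p = 0.0105). Over all weeks with no filter it was at −0.15 in islets (limma adjusted p = 0.00571) and at 0.10 in liver (limma adjusted p = 0.0341), at levels under 1 FPKM throughout.

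Median sums of some islet cell type markers also differed by diet, which was not tested. Summed alpha cell markers had a median of 11826 FPKM in CD islets and 4231 FPKM in HFD islets, delta cell markers 3573 and 1433 FPKM, and beta cell markers 663368 and 782540 FPKM. Acinar markers had 13026 and 10601 FPKM, but were higher under HFD at week 8 (9639 and 16100 FPKM) and lower at week 12 (42330 and 19123 FPKM). Stromal markers had 21.5 and 11.1 FPKM, ductal markers 130.2 and 129.6 FPKM, and endothelial markers 78.1 and 77.5 FPKM. Summed macrophage markers had medians of 60.0 and 70.0 FPKM. Smpd3 correlated with the alpha cell sum at r = 0.552 and with the delta cell sum at r = 0.617 over the 48 islet libraries, and at −0.003 and −0.052 within groups. The part of the islet cell mixture in the fall of Smpd3 was not tested.

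Some members varied together across the islet libraries. Sptlc1 and Cers5 had r = 0.767 over the 48 libraries and 0.668 within groups, and Sptlc2 and Cers6 had 0.718 and 0.519. Sptlc1 and Sptlc2, whose products form one enzyme, had 0.101 over all libraries and 0.555 within groups. The ratio of Sptlc1 to Sptlc2 had a median of 3.77 in HFD islets and 3.63 in HFD liver, against 3.53 and 4.12 under CD.

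The diet effect itself was then compared between the tissues, as the difference of the mean change in liver and that in islets. Sptlc2 responded more in liver, by 0.38 (SE 0.06, 95% interval 0.27 to 0.49, limma adjusted p = 8.99e-08). Smpd3 differed by 0.69 (SE 0.13, interval 0.43 to 0.95, limma adjusted p = 2.11e-05), higher under HFD in liver and lower in islets. These were 2 of the 8 members tested, where 32.4% of all genes passed in that direction (2926 higher and 625 lower, or 1825 and 1529 after median ratio scaling). The median difference over all genes was 0.09, and relative to it Sptlc2 stood at 0.30 and Smpd3 at 0.61. The tissues were not compared without Ins1 and Ins2, a setting that moved the islet values of both genes. With each mouse as a replicate block, pairing the tissues of one animal, Sptlc2 stood at 0.38 (limma adjusted p = 9e-07) and Smpd3 at 0.69 (limma adjusted p = 5e-05).

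The other 6 members did not pass this comparison. Cers6 differed by 0.21 (limma adjusted p = 0.0787), Sptlc1 by 0.10 (limma adjusted p = 0.108), Cers2 and Sphk2 by 0.07, Cers5 by −0.01 and Degs1 by −0.08. Under median ratio scaling Degs1 passed at −0.17 (limma adjusted p = 0.0181). Without mouse HFD517, Sptlc2 stood at 0.35 and Smpd3 at 0.62 and both passed.

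Early and late weeks were compared to see whether the effects changed with time on the diet. Liver Sptlc2 differed by 0.27 over weeks 4 to 12 (limma adjusted p = 0.00394) and by 0.50 over weeks 16 to 24 (limma adjusted p = 1.09e-06), and the early effect minus the late one was −0.22 (limma adjusted p = 0.617). Liver Smpd3 was at 0.26 early and 0.67 late. Islet Sptlc1 was at 0.03 early and 0.19 late, and the difference of −0.16 did not pass (limma adjusted p = 0.131). No member passed this test in either tissue, where 2.63% of all islet genes and 0.0601% of all liver genes did.

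Members also varied over time in CD mice, in which age, harvest and time in the study cannot be told apart. In islets 6 of 9 tested members varied over the 6 weeks by limma's F test, where 77.6% of all genes did. The highest and the lowest weekly mean of Sphk2 were 0.69 apart on the log2 scale (limma adjusted p = 4.15e-05), those of Cers6 0.58, of Cers4 0.42, of Degs1 0.34, of Smpd3 0.29 and of Sptlc2 0.28. In liver 3 of 8 varied, where 55.3% of all genes did, with spans of 1.01 for Smpd3 (limma adjusted p = 0.0198), 0.51 for Cers2 and 0.42 for Degs1.

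The other genes of the pathway were counted in 4 lists, 43 symbols of which 41 were in the table. In liver 10 of 28 tested rose and 2 fell over all weeks, beside 34.4% and 6.88% of all genes, and in islets 7 of 31 rose and 2 fell, beside 16.9% and 20.9%. The count of liver genes that rose was thus near the share over all genes. After median ratio scaling 5 of 28 were higher and 8 lower in liver, where 1942 and 1742 of all genes were. Without Ins1 and Ins2 25 of 34 were higher and 1 lower in islets, where 7975 and 870 of 13010 genes were. The counts thus depended on scaling, as did those of all genes.

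The list of synthesis genes and their regulators had 5 of 6 tested genes higher in islets, where 16.9% of all genes rose, namely the 3 Orm family genes Ormdl1 (0.10), Ormdl2 (0.12) and Ormdl3 (0.14, limma adjusted p = 4.8e-05), whose products restrain serine palmitoyltransferase, Kdsr (0.13), which encodes the reductase of the second step, and Degs2 (0.20), a desaturase and hydroxylase. These 5 were also higher after median ratio scaling, where 2356 of 11536 genes were, and without the insulin genes, where 7975 of 13010 genes were. In liver 1 of 5 rose, beside 34.4% of all genes, Kdsr, by 0.26 (limma adjusted p = 0.00159), and at week 8 it rose by 0.71 (limma adjusted p = 0.0172). After median ratio scaling Kdsr stayed higher in liver, at 0.18 (limma adjusted p = 0.0162). Ormdl1 at −0.13 (limma adjusted p = 0.00522) and Sptssa at −0.13 (limma adjusted p = 0.00607) were lower there. The diet effect of Ormdl1 on deposited FPKM was lower in liver than in islets, at −0.15 (limma adjusted p = 0.0249).

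Sptlc3, an alternative to Sptlc2 in serine palmitoyltransferase, was listed at 0 in all 48 islet libraries. In liver it was listed at 0 in 17 of 24 CD libraries, with the other 7 at up to 0.23 FPKM, and in 6 of 24 HFD libraries, with the other 18 at up to 2.98 FPKM. HFD livers had 0.06, 0.07, 0.13 and 0.41 FPKM at week 12, where no CD liver was above 0.02 FPKM. All 4 HFD mice lay above all 4 CD mice at weeks 12, 16, 20 and 24, a pattern shown in those weeks by 14.6%, 11.9%, 6.58% and 8.14% of the genes that passed the filter, which Sptlc3 did not.

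At week 16 the HFD livers had 0.13, 0.32, 0.54 and 2.38 FPKM of Sptlc3, and the CD livers at most 0.03 FPKM. At week 20 the HFD livers had 0.14, 0.88, 1.02 and 1.56 FPKM, and all 4 CD livers were listed at 0. At week 24 the HFD livers had 0.91, 1.2, 2.3 and 2.98 FPKM against 0.00, 0.01, 0.12 and 0.23 FPKM. Sptlc3 was under the filter in every week, and with no filter its week 24 difference was 1.33 (limma adjusted p = 0.0481) and it passed at no other week. With single libraries left out it was tested at week 24 in 5 of 8 fits and passed without CD605 or HFD617, but not without CD601 (0.0991), CD606 (0.0635) or CD608 (0.0786), by limma adjusted p. It was singled out after its values were seen.

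In the list of sphingomyelin and glycolipid synthesis, few genes passed. Sgms1, a sphingomyelin synthase that consumes ceramide, fell by 0.12 in islets and rose by 0.16 in liver, and the tissues differed by 0.28 (limma adjusted p = 0.00189). St3gal5, which makes the ganglioside GM3, fell by 0.14 in islets. These were 2 of 9 tested in islets, where 20.9% of all genes fell, and 1 of 7 in liver, where 34.4% rose. The islet share was thus near that of all genes, and the liver share was below it. At week 8 St3gal5 (−0.38) and B4galt5 (−0.25), with Sptssa of the synthesis list (−0.25), fell in islets, where the median of all genes was −0.11, and St3gal5 fell again at week 16 by 0.29. Without the insulin genes the islet values turned to 0.05 for Sgms1 and 0.04 for St3gal5, or −0.11 and −0.12 relative to all genes, and after median ratio scaling Sgms1 no longer passed in liver and St3gal5 was lower there by −0.36 (limma adjusted p = 0.0361).

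Of the breakdown genes, 5 of 10 rose and 2 fell in liver, beside 34.4% and 6.88% of all genes. The ceramidases Asah1 (0.16), Asah2 (0.28) and Acer2 (0.34) rose, as did the sphingomyelinases Smpd1 (0.12) and Smpd4 (0.14). Gba2, the non-lysosomal glucosylceramidase, fell by 0.29 (limma adjusted p = 3.03e-07) and Galc, the galactosylceramidase, by 0.14. Gba2 also fell at week 16 by 0.59 and at week 20 by 0.63 (limma adjusted p = 0.0115 and 0.0268), and its diet effect was lower in liver than in islets by 0.34 (limma adjusted p = 8.55e-08). After median ratio scaling Asah1, Smpd1 and Smpd4 no longer passed, which left 2 higher and 2 lower.

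In islets 1 of 10 breakdown genes rose, Smpd1, by 0.12, beside 16.9% of all genes. Without the insulin genes 10 of 10 did, on a scale where 7975 of all 13010 genes tested were higher. In the list for removal, export and sensing of sphingosine 1-phosphate, 3 of 6 rose in liver, beside 34.4% of all genes: the receptor S1pr2 (0.42, limma adjusted p = 6.57e-07), the exporter Spns2 (0.26) and the phosphatase Sgpp1 (0.15). S1pr2 rose in liver at week 12 by 0.48 and at week 16 by 0.44 (limma adjusted p = 0.0145 and 0.0238). In islets Sgpp1 rose by 0.14, as 1 of 6, beside 16.9% of all genes. After median ratio scaling Sgpp1 no longer passed in liver, and Sgpl1 at −0.16 (limma adjusted p = 0.0223) and S1pr5 at −0.21 (limma adjusted p = 0.0325) were lower there.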

How the data were processed

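Poly(A) RNA of islets and liver from 48 mice was reverse transcribed with random hexamers and sequenced on a BGISEQ-500, and tissue, diet, week and mouse number were taken from the labels. The authors deposited one table of FPKM per gene and library, to 2 decimals, from which all 96 columns were used. The submitters' processing notes name HISAT2 2.0.4, Bowtie2 2.2.5, RSEM 1.1.12, DESeq2 and build GRCm38.p5, and no count test was run here because no counts were used. Columns holding the authors' own comparisons (group means, log2 ratios, p and q values, gene modules) were not used. FPKM are scaled by each library's mapped fragments, so a few abundant genes shift all others, though summed FPKM differed between libraries. Depth is unknown, and the number of mice sets the precision. No pair of libraries of a group held like values, with at least 14957 genes differing.

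A gene was tested where 4 of the 8 libraries of a week, or 24 of 48 for fits over all weeks, reached 1 FPKM, and the tests ran on log2(FPKM + 1) with limma 3.58.1 in R 4.3.3, allowing for a trend of variance with level and for outlying variances. Adjusted p are Benjamini-Hochberg values over all genes tested, and the threshold was 0.05. Each week was fitted alone with 4 against 4 mice. Fits over all weeks used 12 group means per tissue, those of early against late weeks used the same fit, and tissues were compared over 24 group means. The F test over weeks used CD mice. The model was tested on simulated data. Tables and plots were made with Python 3.11.15, pandas 2.3.3 and matplotlib 3.10.9.

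Replicate numbers are mouse numbers, so same-numbered islet and liver libraries come from the same animal and pair the samples. The correlation of their deviations from group means over genes was −0.133 to 0.334 (median 0.183), above 0.1 in 36 of 48 mice. The mouse was fitted as a block as an alternative.

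The 10 members, the 4 pathway lists and the 10 marker lists were chosen with earlier results of these data known. All members are named, other pathway genes where they passed, and for Sptlc2 in liver the 5 genes most like it by Pearson correlation. Alternatives were a pseudocount of 0.1, no filter, one fit of all groups, median ratio scaling, a fold threshold, non-robust variances, each library or week left out, and the insulin genes left out. Fits without mouse HFD517 and without liver libraries with over 1000 FPKM of beta cell markers were chosen after seeing the data. Promoter windows are from RefSeq, GRCm38.p6.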

Additional observations from a re-analysis of the deposited data

Results flagged for a closer look

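The diet effect of Sptlc2 differed between the tissues by 0.38 (liver minus islets, log2), and that of Smpd3 by 0.69, each by the test of the difference itself.

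Of 240 groups of 4 mice (10 genes, 24 groups each), 12 held 1 mouse whose gap to its nearest neighbour took up more of the group's range than Dixon's 95% critical value, and about 1 in 20 groups, or 12, are flagged by chance alone. For Sphk1, which lay under 1 FPKM throughout, the lowest mouse stood apart in CD islets at week 12 (0.48 FPKM, mean of the other mice 0.733 FPKM) and at week 24 (0.18 against 0.38 FPKM), in HFD islets at week 4 (0.20 against 0.507 FPKM) and in CD liver at week 12 (0.12 against 0.177 FPKM). Smpd3 in CD islets at week 16 had 1 low mouse (6.36 against 6.67 FPKM), which lies in the group of the only islet call made by week. Sptlc1 had 1 low mouse in HFD islets at week 16 (18.27 against 21.69 FPKM) and 1 high mouse in CD liver at week 24 (10.82 against 9.43 FPKM).

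Cers2 in HFD islets at week 8 (36.21 against 32.05 FPKM) and Degs1 in HFD islets at week 16 (113.9 against 87.37 FPKM) had 1 high mouse each. Cers4 had 1 low mouse in HFD islets at week 24 (4.34 against 4.97 FPKM). Cers5 in HFD liver had 1 low mouse at week 12 (0.67 against 1.083 FPKM) and 1 high mouse at week 20 (1.69 against 1.287 FPKM), the latter being mouse HFD517.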

How the results depend on the processing

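By week, the 1 member call in islets became 0 with an added log2 fold threshold of 1, 3 with no filter, 4 with all groups in one fit and 18 without Ins1 and Ins2, and ranged from 0 to 2 with single libraries left out. The 4 calls in liver became 0 with the fold threshold, 1 with no filter and 7 with all groups in one fit, and ranged from 2 to 6 with single libraries left out. Over all weeks in islets, 4 calls became 8 without Ins1 and Ins2 and 2 without week 12, 16 or 20. The fall of Smpd3 in islets at week 16 turned to 0.031 without Ins1 and Ins2, a setting whose construction raises every other islet gene in mice with a larger insulin share. The cause of the other changes was not tested. Of the values for single genes, 279 kept direction and side of the threshold, 40 were weaker, 8 stronger and 1 reversed. The replicate block changed no other call: 2 members passed the liver minus islet comparison with it and 2 without, and 9 passed liver against islets in CD mice either way.

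Over all genes, islet calls over all weeks went from 1951 higher and 2418 lower to 7975 and 870 without Ins1 and Ins2. By week that setting moved islet calls from 246 higher and 265 lower to 8596 and 240 at week 12, from 386 and 602 to 8434 and 519 at week 16, and from 70 and 543 to 38 and 72 at week 8. At week 8 median ratio scaling gave 85 and 80, and no filter 22 and 132. At week 16 no filter gave 1232 lower. At week 20 in liver, 176 and 76 became 75 and 39 with no filter. One fit of all groups gave 126 and 807 in islets at week 8, 647 and 469 at week 12, and 471 and 595 against 179 and 376 at week 20, and in liver 78 and 28 against 4 and 1 at week 4, 572 and 172 at week 20, and 270 and 42 against 66 and 19 at week 24. At week 4 it called 1 and 4 islet genes against 0, and liver calls there fell to 1 with a pseudocount of 0.1, no filter or median ratio scaling. With no counts, depth set no stated limit.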

Other observations

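Sphk1, the inducible sphingosine kinase, stayed under the filter on the deposited FPKM but had values in all 96 libraries. In islets it averaged 0.41 ± 0.205 FPKM under CD and 0.266 ± 0.15 FPKM under HFD, and in liver 0.164 ± 0.0742 FPKM under CD and 0.255 ± 0.152 FPKM under HFD (SD, n = 24 each). Ugt8a, which makes galactosylceramide and was under the filter as well, ranged from 0.27 to 0.86 FPKM in CD islets, with a median of 0.585 FPKM, and from 0.04 to 0.81 FPKM in HFD islets, with a median of 0.125 FPKM. It was singled out after its values were seen, and over all weeks it was lower in HFD islets by −0.42 with no filter (limma adjusted p = 1.66e-11) and by −0.74 without Ins1 and Ins2 (limma adjusted p = 5.61e-13). Cerk, the ceramide kinase, ranged from 0.43 to 1.27 FPKM in CD liver and from 0.64 to 2.73 FPKM in HFD liver, where it stayed under the filter over all weeks.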
